A study of Mus musculus with 25 samples.

Results

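Suppressors of cytokine signalling (Socs genes) and interferon regulatory factors (Irf genes) were examined in DNA methylation data from mouse mammary fat pads: Socs1, Socs2, Socs3, Socs7, Irf1, Irf2, Irf4, Irf5, Irf7 and Irf8. Members were taken by gene name, with every CpG carrying that name in the deposited table and an average coverage of at least 10 reads. Of the 10 genes, 8 had CpGs under their own name, 198 in all among the 283974 CpGs of the table, which names 16274 genes. Coverage of at least 10 reads held at 190 of them, and 129 could be tested because they had values in no fewer than 3 mice in each group of that size or more. CpGs of one gene and one annotated feature that lay at most 300 bp apart were also joined into blocks of at least 3 tested CpGs. This gave 16 blocks in 6 genes, among 17113 blocks of the whole table. Irf2 and Socs2 had tested CpGs but no block, and no CpG carried the name Socs1 or Irf4.

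The tissue was the contralateral (9th) mammary fat pad of wild-type C57BL/6N mice whose 4th fat pad had been injected with E0771 cells, a mouse mammary cancer line, 25 weeks after the diets were assigned. All groups therefore carried a tumour, and the fat pads came from tumour endpoint. Mice of every group other than Control had first been made obese on a 60% high-fat diet (D12492). MCR mice (3) then lost weight on a Mediterranean-style diet with 30% calorie restriction. LFCR mice (4) received a low-fat diet with 30% calorie restriction, LFD mice (3) a low-fat diet without restriction and ICR mice (5) intermittent calorie restriction. Obese mice stayed obese, and 1 of them is used here. Control mice (5) ate the control diet D12450J throughout and were never made obese, so a difference from Control sets weight loss after obesity against a life without it, not against obesity. Reduced representation bisulfite sequencing (RRBS) reads cytosine methylation in MspI fragments, here of 40 to 170 bp, and so samples CpG-dense sequence. Of the 25 libraries, 3 Obese (mice 27, 28 and 40) and 1 LFD (mouse 46) were left out by the rule that chose the CpGs. At CpGs with a Control mean under 5% and a value in all 25 libraries, these 4 averaged 49.4 to 49.6%, against 0.86 to 1.5% in the 21 used. The table gives no depth per library, so a single value has unknown precision. The average coverage of the 190 CpGs had a median of 42.7 reads and ran between 11.1 and 201.3.

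Cytokine and interferon receptors signal through JAK kinases and STAT transcription factors. SOCS proteins are induced by that signal and shut it down: SOCS1 and SOCS3 block JAK activity, SOCS2 restrains growth hormone signalling, and SOCS3 limits leptin and IL-6 signalling. Interferon regulatory factors are transcription factors. IRF1, IRF5 and IRF7 activate interferon and inflammatory genes, IRF2 counteracts IRF1, and IRF4 and IRF8 direct the development of lymphoid and myeloid cells. In fat tissue these genes act in adipocytes, vessels and the immune cells that live among them. Methylation at promoter CpG islands usually accompanies silence, whereas methylation inside genes has no fixed relation to expression, and no expression was measured here.

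The promoters were read from RefSeq (GRCm38.p6, the same build as mm10) for the 8 members with an entry. They are shown because the measured CpGs in them were nearly unmethylated in every group, while most of the differences reported below lay further into the genes. The Irf8 window holds no measured CpG and is shown for its STAT core matches, since a block of measured CpGs begins 81 bp after the start. Each runs from 250 bases before to 30 bases after the start site, 5' to 3' on the strand of the gene. A capital CG on its own marks a CpG with a measured level. The 9-letter runs in capitals match TTC, any 3 bases and GAA, the core that STAT dimers bind, searched on both strands. Socs3 lies at chr11:117969337-117969616 (minus strand), Irf1 at its second start at chr11:53770223-53770502 (plus), Irf5 at chr6:29526375-29526654 (plus), Irf7 at chr7:141266395-141266674 (minus) and Irf8 at its first start at chr8:120736108-120736387 (plus).
Socs3: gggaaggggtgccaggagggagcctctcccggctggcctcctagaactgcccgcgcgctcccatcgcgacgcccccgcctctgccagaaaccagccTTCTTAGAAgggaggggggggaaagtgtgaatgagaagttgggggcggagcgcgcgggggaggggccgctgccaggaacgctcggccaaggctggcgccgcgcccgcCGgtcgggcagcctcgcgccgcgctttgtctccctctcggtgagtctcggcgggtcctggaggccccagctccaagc
Irf1: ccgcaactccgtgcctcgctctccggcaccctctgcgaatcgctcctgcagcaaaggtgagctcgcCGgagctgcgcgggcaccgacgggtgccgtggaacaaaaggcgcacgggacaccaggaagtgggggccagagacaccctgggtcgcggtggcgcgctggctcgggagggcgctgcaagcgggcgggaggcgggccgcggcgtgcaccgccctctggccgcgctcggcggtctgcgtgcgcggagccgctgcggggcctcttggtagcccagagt
Irf5: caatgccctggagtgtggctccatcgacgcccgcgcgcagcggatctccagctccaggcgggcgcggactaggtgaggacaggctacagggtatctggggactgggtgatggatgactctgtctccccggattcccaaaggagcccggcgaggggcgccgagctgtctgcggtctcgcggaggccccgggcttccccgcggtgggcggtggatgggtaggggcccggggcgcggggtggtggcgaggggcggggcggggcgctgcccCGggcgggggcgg
Irf7: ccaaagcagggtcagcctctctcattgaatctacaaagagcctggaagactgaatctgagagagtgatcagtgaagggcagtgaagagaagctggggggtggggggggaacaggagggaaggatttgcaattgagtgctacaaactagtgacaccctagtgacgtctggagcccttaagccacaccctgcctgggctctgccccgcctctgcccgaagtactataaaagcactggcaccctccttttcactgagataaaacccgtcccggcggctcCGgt
Irf8: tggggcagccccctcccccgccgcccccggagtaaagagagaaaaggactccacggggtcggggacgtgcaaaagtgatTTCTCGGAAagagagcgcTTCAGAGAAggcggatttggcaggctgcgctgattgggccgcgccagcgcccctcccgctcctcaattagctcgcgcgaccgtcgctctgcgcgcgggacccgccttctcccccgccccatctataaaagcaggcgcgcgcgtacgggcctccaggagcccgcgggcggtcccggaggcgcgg
The STAT core had 1 match in the Socs3 window, beginning 154 bases before the start, and 2 matches that do not overlap in the Irf8 window. Irf2 had 1 match beginning 224 bases before its start. The first Irf1 start, not printed, had a match beginning 90 bases before it. Of 32817 RefSeq promoter windows of 300 bases, 8.29% held this core. GAAA, any 2 bases and GAAA, the core of the interferon-stimulated response element that IRF proteins bind, was in 3.43% of the windows. It had 1 match in the Irf2 window and 2, which overlap, in that of Socs1, and none in the windows of the other members. A match describes the letters only.

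At these promoter CpGs, methylation was close to 0 in every used library. The Socs3 CpG, 47 bases before the start, averaged 1.52% in MCR mice and 0.392% in Control mice. The Irf5 CpG, 17 bases after the start, averaged 0.439% in MCR mice and 0.238% in Control mice. The Irf1 CpG, 184 bases before the second start, read 0 in all mice with a value, and the Irf7 CpG, 26 bases after the start, did so in MCR mice and averaged 0.328% in Control mice. Across the 8 genes, 42 of the 129 tested CpGs had a Control mean under 5%. None of those 42 was called different between MCR and Control, where a call is an adjusted p under 0.05 in limma's moderated test with Benjamini-Hochberg adjustment over the whole table. Over the whole data set, 0.235% of such low CpGs were called lower and 1.36% higher. A CpG chosen for a Control mean under 5% has little room to fall. With calls this rare among such CpGs, their absence here is not particular to these genes. The mean over the 42 member CpGs ran between 0.463% and 1.79% in the 21 libraries.

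Between MCR and Control, 10 of the 16 member blocks were called, 6 lower and 4 higher, in a table where 60.2% of all blocks were called (53.8% lower and 6.4% higher). Among single CpGs, 40 of 129 were lower and 12 higher, against 37.4% called, 32.8% lower and 4.54% higher, of all 129217 tested CpGs. The members' share of calls was thus near that of the table, and the median difference over their 16 blocks was -0.46 points, against -8.05 points over all blocks. This median includes blocks near 0 in Control, which have little room to fall, and the higher Irf8 blocks. By Control level, member CpGs had median differences of -12.1 points at 5 to 30%, -8.80 at 30 to 70% and -14.1 over 70%. All tested CpGs of those levels had -3.38, -14.8 and -10.1 points. All 4 higher blocks lay in Irf8. LFCR mice had 4 blocks called lower than Control and none higher, where 35.7% of all blocks were called, 32.2% lower and 3.51% higher. They had 14 CpGs called lower and none higher, where 13.5% of all CpGs were called, 12.1% lower and 1.48% higher. Without LFCR mouse 63 or LFCR mouse 67 no member block or CpG was called in LFCR, and without Control mouse 2 there were 2 blocks and 3 CpGs, all lower. Without LFCR mouse 72 there were 6 blocks, 4 lower and 2 higher, and 30 CpGs, 22 lower and 8 higher, so calls of higher methylation appeared that the full set of LFCR mice did not give. Higher calls also appeared without Control mouse 5 (1 block) and without Control mouse 10 (2 CpGs). With the 4 libraries that stand apart included, 8 member blocks could be tested, of which 3 were called in MCR and 1 in LFCR. No member block or CpG was called by limma in LFD against Control (background 0.00584% of blocks and 0% of CpGs, and 2 member blocks without LFD mouse 47), in ICR against Control (0% of both) or in MCR against LFCR (0% of blocks and 0.0101% of CpGs, 0.00774% lower and 0.00232% higher). At an unadjusted p under 0.05, the member blocks numbered 4 of 16 in LFD (28% of all blocks), 4 in ICR (18.3%) and 2 in MCR against LFCR (12.6%), which is near the share of the table. The comparisons with Control share its 5 mice and so are not independent of each other. Groups are said below not to overlap at some blocks and CpGs. The share of the whole table with such an order was computed only for all 15 weight-loss mice together. Elsewhere, non-overlap is not known to be particular to these genes. Fat pads are mixtures, and a change in the share of a cell type cannot be told apart from a change of methylation within cells.

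**Figure D1:**
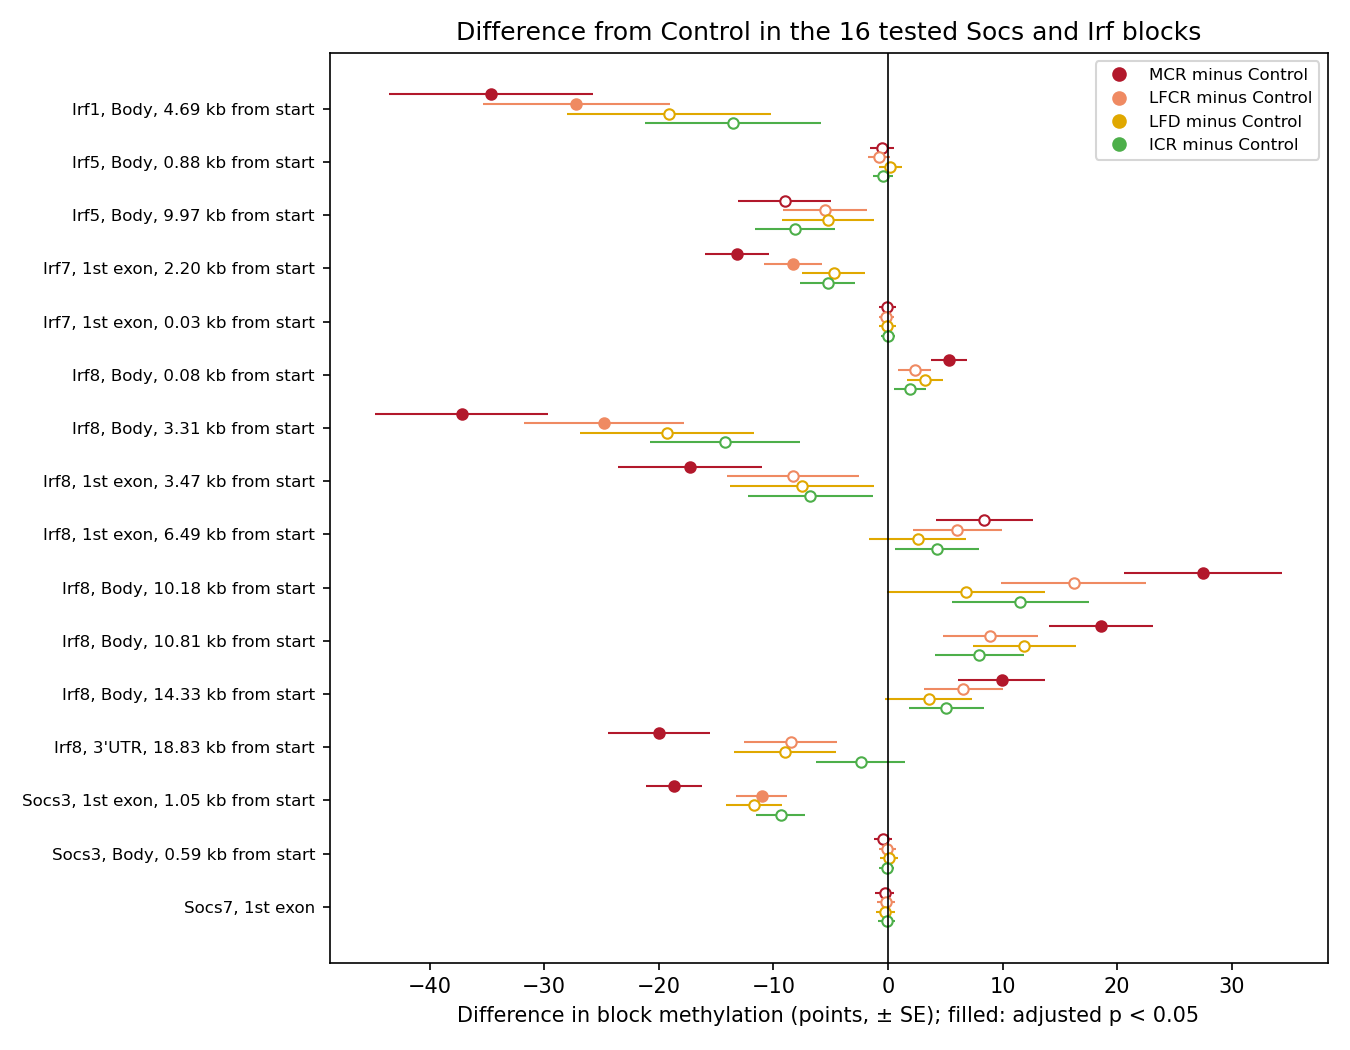
Difference in methylation from Control, in percentage points with its standard error, for each of the 16 tested Socs and Irf blocks in MCR, LFCR, LFD and ICR mice; filled points have an adjusted p under 0.05, and the distance is that of the nearest CpG from the RefSeq start. Blocks near the start of Irf5, Irf7, Socs3 and Socs7 sit at 0 in all 4 diets, and Irf8 has filled MCR points on both sides of 0.

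Socs3, the inhibitor of JAK kinases downstream of leptin and IL-6 receptors, had the smallest p of all member blocks. Its 19 CpGs span chr11:117967759-117968312 in mm10, which the authors' table calls 1st exon and which lies 1054 to 1607 bp downstream of the RefSeq start. Block methylation was 8.57, 7.55 and 7.79% in MCR mice. It was 9.72, 13.1, 16.6 and 22.9% in LFCR mice, and 11.4, 15.6 and 17.8% in LFD mice. ICR mice had 15.1, 16.1, 15.3, 18.8 and 21%, the Obese mouse had 22.4%, and Control mice had 24.9, 30.7, 28.0, 24.6 and 25.0%. Every one of the 15 weight-loss mice and the Obese mouse lay below the lowest Control mouse, and the MCR mice lay below all others. All 15 weight-loss mice lay below all Control mice in 2.31% of the blocks of the table, and Socs3 was the 1 member block of 16 with this order; no member block had all 15 above all Control mice, an order that 0.199% of blocks showed. The difference from Control was -18.7 points (SE 2.45) in MCR mice, with a limma adjusted p of 0.000437, and -11.0 points (SE 2.25, adjusted p = 0.010) in LFCR mice. It was -11.7 points (SE 2.45, adjusted p = 0.0815) in LFD mice and -9.35 points (SE 2.12, adjusted p = 0.243) in ICR mice, neither past the threshold. Between the diets of equal restriction, MCR minus LFCR was -7.63 points (SE 2.56, limma adjusted p = 0.342). Without LFCR mouse 63 or 67 the LFCR difference was -9.07 or -10.2 points and its adjusted p rose to 0.0517 in both cases, and without LFD mouse 47 the LFD difference was -12.0 points with an adjusted p of 0.0372.

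Along Socs3, methylation and the size of the difference were larger farther from the start. The 6 tested CpGs from that in the promoter to 889 bp downstream were nearly unmethylated, with means of 0 to 1.52% in MCR mice and 0 to 1.08% in Control mice. The 10 CpGs between 1268 and 1349 bp had means of 0.680 to 7.19% in MCR mice, 4.22 to 13.2% in LFCR mice and 11.5 to 28.4% in Control mice, and all 10 were called lower in MCR. The 6 CpGs between 1522 and 1607 bp had means of 10.5 to 35.8% in MCR mice, 20.5 to 50.1% in LFCR mice and 36.4 to 66.0% in Control mice. Those 6 were also called lower in MCR, by 25.9 to 35.8 points. In all, 17 of 25 tested Socs3 CpGs were called lower in MCR and 10 in LFCR. Over all tested CpGs, 32.8% were called lower in MCR and 12.1% in LFCR. The called Socs3 CpGs are neighbours in the same mice and are not independent. The CpG of smallest p in MCR, at chr11:117968071, read 2.04, 0 and 0% in MCR mice, against 12.0, 17.5, 15.4, 24.5 and 22.2% in Control mice (difference -17.6 points, SE 2.80, limma adjusted p = 0.00091). The groups did not overlap there, which follows in part from choosing the CpG by its p.

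**Figure D2:**
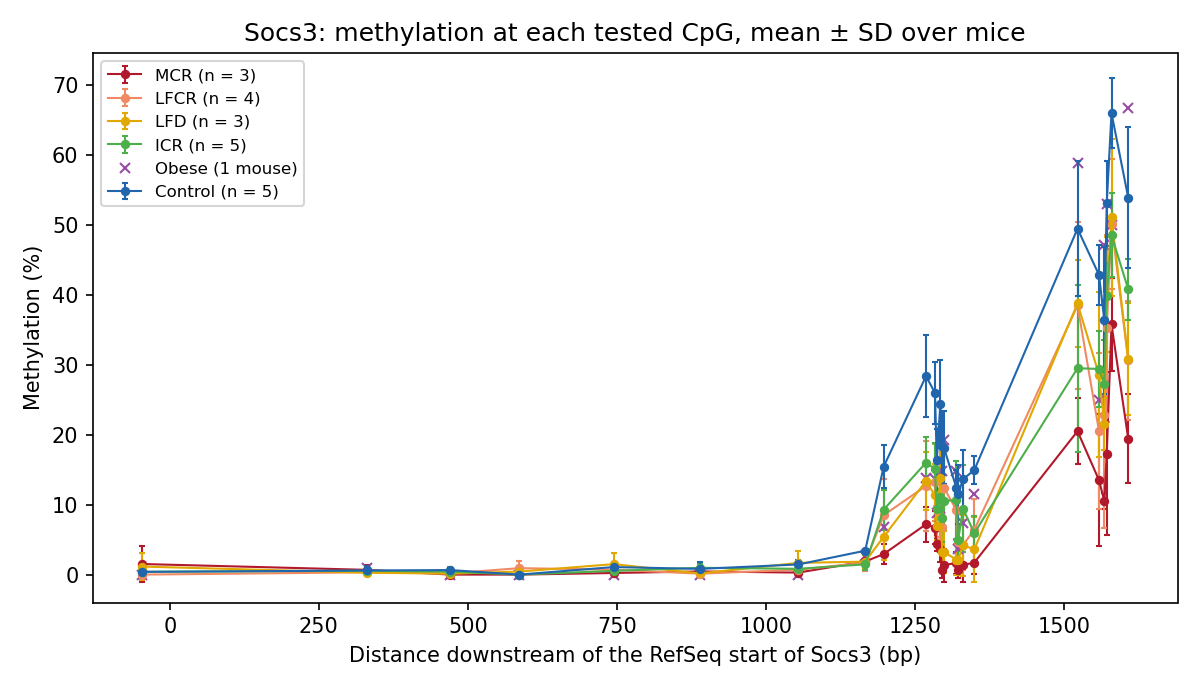
Methylation in percent at each of the 25 tested Socs3 CpGs against distance from the RefSeq start in bp, as group means with SD over mice (crosses are the 1 Obese mouse). All groups lie near 0 up to 889 bp, and beyond 1197 bp the MCR means lie below the Control means at every CpG.

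The blocks whose level across the 21 libraries was most like that of Socs3 lay in Zbtb40 (Pearson r = 0.966), Fmnl1 (r = 0.961), Rhof and Tmem120b, which share 1 block (r = 0.959), and Synpo (r = 0.953). The points of each correlation are the same libraries with the same diet differences. The Zbtb40 block averaged 50.8% in MCR mice, 63.0% in LFCR mice and 77.3% in Control mice, and the Fmnl1 block 18.2% in MCR mice, 33.8% in LFCR mice and 60.7% in Control mice. The blocks of all 5 genes were called lower in MCR than in Control, as were 53.8% of all blocks. They were chosen for levels like those of Socs3, itself lower in MCR, so these calls add no separate evidence.

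The other Socs genes showed no called difference. Socs7, a family member that interacts with cytoskeletal and insulin receptor adaptor proteins, had 1 block of 4 CpGs at chr11:97362950-97363334 (1st exon). It averaged 0.442% in MCR mice and 0.723% in the 4 Control mice with a value (difference -0.28 points, SE 0.838, limma adjusted p = 0.800). Its CpG of smallest p, chr11:97363230, read 0 in all MCR mice and averaged 2.05% in Control mice (adjusted p = 0.282). Socs2 had 11 tested CpGs, 9 of them under 5% in Control. The CpG of smallest p, chr10:95416235 in the gene body, was at 0, 25.0 and 2.00% in MCR mice and at 0, 0, 3.03 and 0% in the Control mice with a value (adjusted p = 0.119). Of the MCR mice, 1 was high there. Another Socs2 body CpG, chr10:95414512, chosen after its values were seen for its spread, ran between 3.77 and 94.7% among Control mice and between 17.0 and 37.5% among MCR mice.

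Socs1, the interferon-induced inhibitor of JAK1 and JAK2, is not named in the table, but 12 tested CpGs without a gene name fell within its RefSeq span (chr16:10783808-10785536). Neither block there was called in MCR, with differences of -0.15 points (SE 1.30, adjusted p = 0.932) over the 6 CpGs of chr16:10784026-10784675 and -0.25 points (SE 0.744, adjusted p = 0.802) over the 4 CpGs of chr16:10785016-10785367. The 2 CpGs farthest from the start averaged 34.7% each in MCR mice, against 39.4 and 32.1% in Control mice. The other 10 averaged at most 5.19% in MCR mice and 3.24% in Control mice. For Irf4, whose product drives plasma cell and M2-type macrophage programmes, 15 unnamed CpGs fell within the RefSeq span (chr13:30749233-30766981), and none had values in enough mice to be tested.

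Irf1, the interferon-gamma-induced activator, was lower deep inside the gene. Its block of 3 body CpGs at chr11:53774702-53774766 lies 4.69 to 4.75 kb from the first start. Levels were 29.4, 17.3 and 24.5% in MCR mice and 15.1, 12.9, 49.6 and 47.0% in LFCR mice, where mice 63 and 67 were low and 69 and 72 high. LFD mice had 18.5, 55.8 and 43.4%, ICR mice 53.7, 31.7, 47.9, 39.5 and 51.2%, the Obese mouse 50.5% and Control mice 60.6, 66.7, 51.7, 52.0 and 60.7%. MCR and LFCR mice all lay below the lowest Control mouse. The difference was -34.6 points (SE 8.91, limma adjusted p = 0.00381) in MCR and -27.2 points (SE 8.18, adjusted p = 0.0212) in LFCR. The LFCR call was lost without LFCR mouse 63 (-21.8 points, adjusted p = 0.095), without LFCR mouse 67 (-21.1 points, adjusted p = 0.0942) or without Control mouse 2 (-25.1 points, adjusted p = 0.0532). The CpG of smallest p was the first of the block, chr11:53774702, with a mean of 21% in MCR mice and 58.6% in Control mice (difference -37.7 points, SE 8.89, adjusted p = 0.00434). A pair of CpGs less than 0.5 kb further on, chr11:53775129 and chr11:53775140, averaged 75.8 and 83.8% in MCR mice and 73.9 and 77.1% in Control mice, with no call.

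Irf2, the antagonist of Irf1 at shared sites, had 4 tested CpGs. The 3 near the start averaged 0% in MCR mice and 0 to 2.78% in Control mice. The fourth, chr8:46836392 in the gene body, read 50.8, 50 and 45.5% in MCR mice and 40.0, 46.3, 50 and 66.7% in LFCR mice. It read 86.2, 91.7, 54.5, 73.5 and 72.7% in Control mice, all above the MCR mice. The CpG was the Irf2 one of smallest p in MCR, so this order follows in part from that choice. The MCR difference was -27 points (SE 9.03, limma adjusted p = 0.0272) and the LFCR difference -25.0 points (SE 8.29, adjusted p = 0.0543).

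Irf5, the factor of inflammatory macrophages downstream of Toll-like receptors, had no called block on the scale of methylation levels with all mice. The block nearest the start, chr6:29527507-29527767, averaged 1.59% in MCR mice and 2.10% in Control mice. The block at chr6:29536598-29536631, 9.97 kb from the start, averaged 76.5% in MCR mice and 85.5% in Control mice (difference -9.03 points, SE 4.02, limma adjusted p = 0.0623). It was called lower on the arcsine square root scale (adjusted p = 0.0476) and without Control mouse 13 (-10.2 points, adjusted p = 0.0499). At its middle CpG, chr6:29536612, MCR mice read 84.3, 77.0 and 84.8%, below all Control mice at 92.0, 89.9, 94.4, 97.0 and 89.3%. That CpG had the smallest p of Irf5 in MCR, so this order follows in part from choosing it. There the difference of -10.5 points (SE 3.31) was called, with an adjusted p of 0.0209, and LFCR mice averaged 92.0%.

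Irf7, the master factor of type I interferon production, had an unmethylated block at its start and a highly methylated block further in. The 3 CpGs at chr7:141266132-141266397 averaged 0.171% in MCR mice and 0.215% in Control mice. The 6 CpGs at chr7:141263734-141264223, which the table also calls 1st exon, lie 2.20 to 2.69 kb downstream of the start. Their level was 76.7, 81.7 and 73.8% in MCR mice and 77.3, 77.0, 86.9 and 87.9% in LFCR mice. It was 79.7, 88.8 and 89.1% in LFD mice, 83.5, 84.7, 87.1, 84.6 and 86.8% in ICR mice, 88.5% in the Obese mouse and 91.9, 91.9, 90.9, 86.8 and 91.6% in Control mice. MCR mice did not overlap Control, whereas LFCR mice did. How many blocks of the whole table separate MCR from Control in this way was not computed. The difference was -13.2 points (SE 2.77, limma adjusted p = 0.00114) in MCR and -8.31 points (SE 2.54, adjusted p = 0.0225) in LFCR. Without LFCR mouse 63 or 67 or Control mouse 2 the LFCR adjusted p was 0.0986, 0.0972 or 0.0515. The CpG of smallest p, chr7:141264175, was at 56.1, 53.7 and 55.1% in MCR mice, against 82.1, 84.2, 83.5, 84.6 and 80.0% in Control mice (-27.9 points, SE 5.64, adjusted p = 0.00194).

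**Figure D3:**
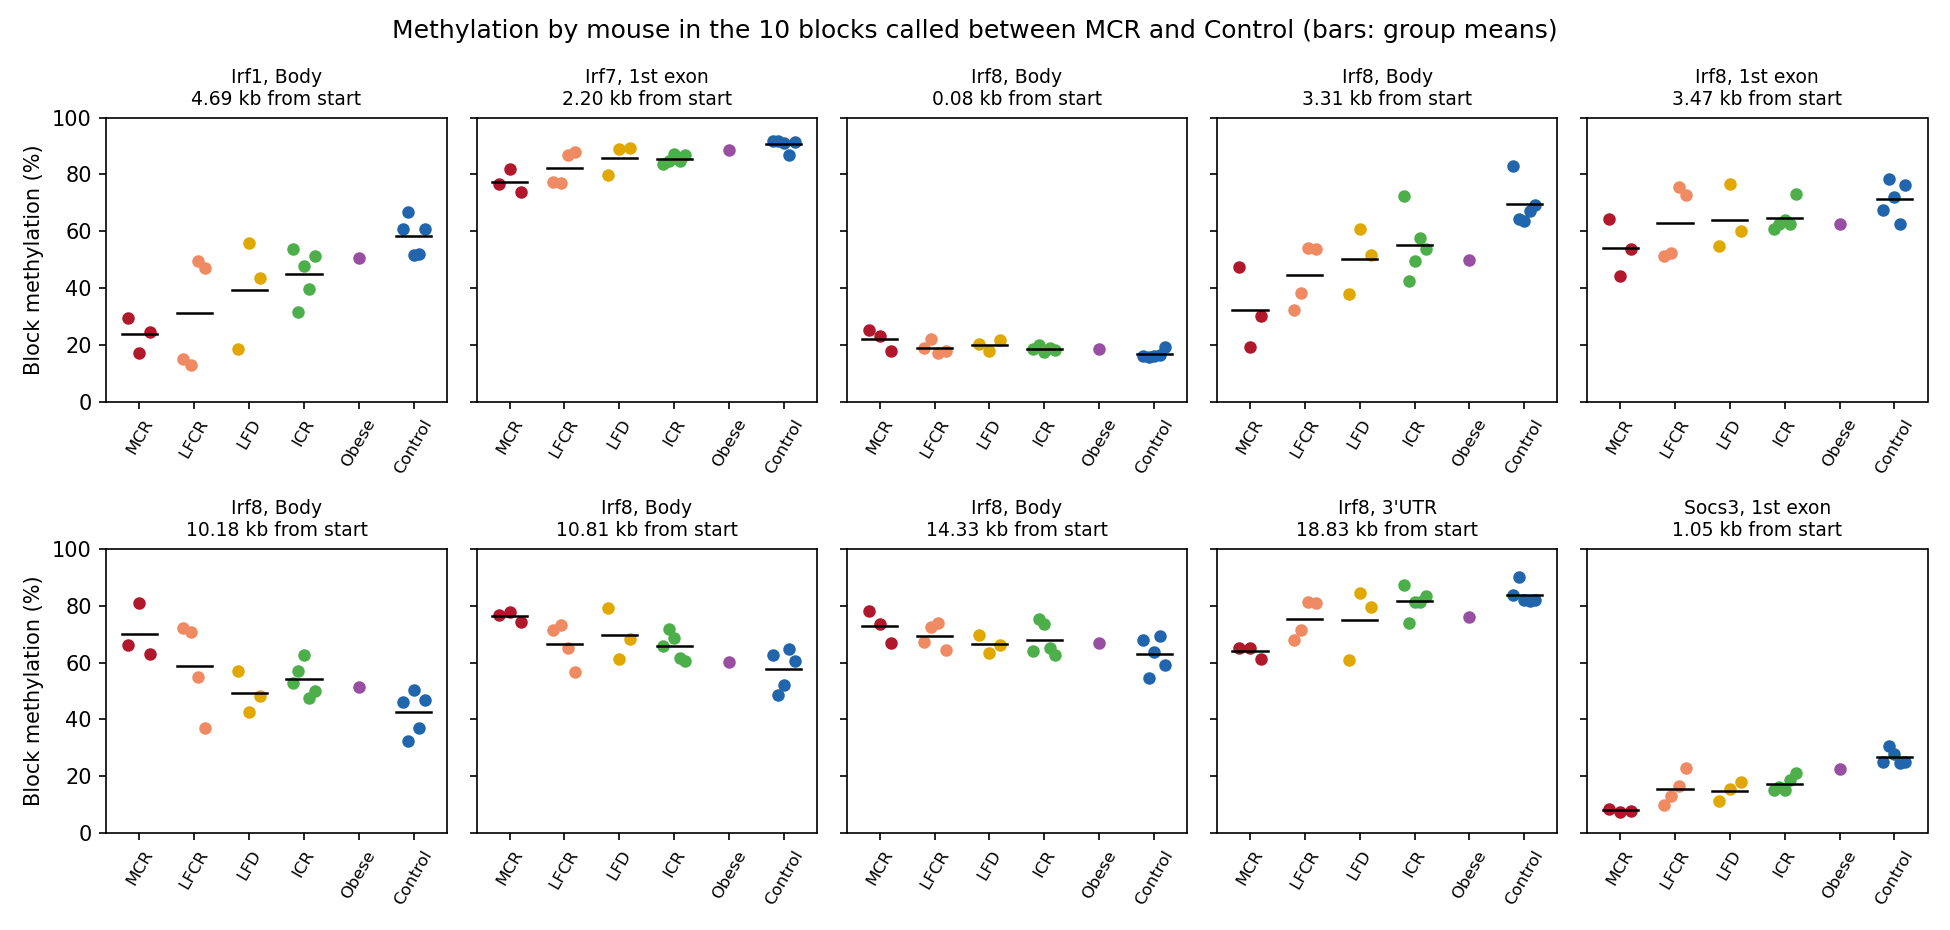
Block methylation in percent for each mouse in the 10 blocks called between MCR and Control, with bars at group means (Obese is 1 mouse). In the Socs3 block the 3 MCR mice sit between 7.55 and 8.57%, below every other mouse, and in the Irf8 blocks at 10.18 and 10.81 kb the MCR mice sit above all Control mice.

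Irf8, the factor that sets the fate of monocytes, dendritic cells and B cells, was the most densely covered member, with 76 CpGs, 53 of them tested, in 8 blocks. The same 76 CpGs also carry the name Gm20388 in the table, so the values belong to both gene names. Of the 53 CpGs, 15 were called lower and 12 higher in MCR than in Control, and the directions alternated along the gene. Over all tested CpGs, 32.8% were called lower and 4.54% higher in MCR. LFCR had 2 called lower and none higher, beside 12.1% lower and 1.48% higher over all tested CpGs. Distances are given from the first of 2 RefSeq starts.

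Just inside Irf8, the 6 CpGs 81 to 692 bp from the start (chr8:120736439-120737050) averaged 22.1% in MCR mice and 16.8% in Control mice. The level was 25.3, 23.2 and 17.9% in MCR mice and 16.3, 15.6, 16, 16.6 and 19.4% in Control mice, so the groups overlapped. The difference of 5.33 points (SE 1.59, limma adjusted p = 0.00906) was not called without MCR mouse 85 (3.72 points, adjusted p = 0.0747) or with the 4 libraries that stand apart included (4.90 points, adjusted p = 0.681). Within this block the first 3 CpGs were near 0 in both groups. The CpGs at 551 and 560 bp carried the difference: at chr8:120736918 MCR mice read 39.2, 40.7 and 33.3%, against 26.8, 13.4, 14.9, 20.4 and 20.6% in Control mice (18.5 points, SE 4.39, adjusted p = 0.0044).

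Between 3.31 and 3.59 kb, Irf8 was lower in MCR. The 3 CpGs at chr8:120739665-120739755 had 47.4, 19.2 and 30.1% in MCR mice and 32.5, 38.5, 54.2 and 53.6% in LFCR mice. LFD mice had 37.8, 60.9 and 51.8%, ICR mice 72.4, 42.6, 49.5, 57.8 and 53.9%, the Obese mouse 49.9% and Control mice 82.9, 64.4, 63.7, 67.2 and 69.2%. MCR, LFCR and LFD mice all lay below the lowest Control mouse, and 1 ICR mouse did not. The difference was -37.2 points (SE 7.56, limma adjusted p = 0.000968) in MCR and -24.8 points (SE 6.95, adjusted p = 0.0166) in LFCR. The LFCR call was lost without LFCR mouse 63 (adjusted p = 0.0767) or 67 (adjusted p = 0.0673). Its first CpG, chr8:120739665, had the smallest p of the gene, at 20, 0 and 17.9% in MCR mice and 90.0, 50, 46.3, 61.5 and 58.1% in Control mice (-48.6 points, SE 8.82, adjusted p = 0.00136). The adjoining 11 CpGs at chr8:120739827-120739946, annotated as 1st exon, averaged 54.1% in MCR mice and 71.3% in Control mice. That difference of -17.2 points (SE 6.28, adjusted p = 0.0259) lost its call without MCR mouse 95 (-12.3 points, adjusted p = 0.153), MCR mouse 96 (-17.1 points, 0.0632), Control mouse 2 (-15.5 points, 0.0577) or Control mouse 13 (-16 points, 0.0517).

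In the middle of Irf8 the direction turned. The 3 CpGs at chr8:120746536-120746642, 10.18 to 10.28 kb from the start, had 66.2, 80.8 and 63.0% in MCR mice, 72.3, 70.7, 55.0 and 36.8% in LFCR mice and 46.0, 32.4, 50.3, 37.0 and 46.9% in Control mice. LFD mice had 56.9, 42.6 and 48.4%, ICR mice 52.9, 57.1, 62.7, 47.3 and 50.1%, and the Obese mouse 51.5%. MCR mice did not overlap Control, while 1 LFCR mouse did. The difference was 27.5 points (SE 6.90, limma adjusted p = 0.00327) in MCR and 16.2 points (SE 6.34, adjusted p = 0.0545) in LFCR. The LFCR difference was called without LFCR mouse 72 (23.5 points, adjusted p = 0.00321), without Control mouse 5 (18.2 points, 0.0497) and on the arcsine square root scale (0.0445). The next block, 5 CpGs at chr8:120747164-120747504, had 76.8, 77.8 and 74.3% in MCR mice and 62.8, 48.6, 52.0, 64.8 and 60.4% in Control mice (18.6 points, SE 4.51, adjusted p = 0.00267), again without overlap. LFCR mice averaged 66.7% there (8.94 points, SE 4.14, adjusted p = 0.0958), and without mouse 72 their difference was called (12.2 points, adjusted p = 0.023). LFD mice had 79.1, 61.4 and 68.3% there, and their difference of 11.9 points (SE 4.51, adjusted p = 0.120) became 16 points with an adjusted p of 0.0486 without mouse 47.

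The 5 CpGs at chr8:120750685-120750945, 14.33 to 14.59 kb from the start, averaged 72.8% in MCR mice and 62.9% in Control mice (9.91 points, SE 3.77, limma adjusted p = 0.032). This call was lost without MCR mouse 85 (7.35 points, adjusted p = 0.157), Control mouse 2 (7.78 points, 0.0798) or Control mouse 13 (9.00 points, 0.0646). The block was not uniform. Its last 2 CpGs were called higher, the farther one, chr8:120750945, at 89.2, 90.0 and 80.0% in MCR mice and 56.5, 33.3, 44.6, 64.0 and 48.5% in Control mice (37.0 points, SE 7.25, adjusted p = 0.0017). The first 3 were lower by 4.27 to 11.9 points, without a call. The block at chr8:120742845-120743038, 6.49 to 6.68 kb from the start, averaged 76.0% in MCR mice and 67.6% in Control mice (adjusted p = 0.0937).

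At the end of Irf8 methylation was lower again. The 5 CpGs of the 3'UTR at chr8:120755185-120755296 had 65.2, 65.2 and 61.3% in MCR mice, 67.8, 71.3, 81.3 and 81.1% in LFCR mice and 60.8, 84.5 and 79.4% in LFD mice. ICR mice had 87.4, 74.1, 81.2, 81.4 and 83.3%, the Obese mouse 76.1% and Control mice 83.9, 90.0, 82.0, 81.6 and 81.9%. MCR mice lay below all Control mice, as did the LFCR mice. The MCR difference was -20.0 points (SE 4.45, limma adjusted p = 0.0016), and the LFCR difference was -8.50 points (SE 4.09, adjusted p = 0.107).

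**Figure D4:**
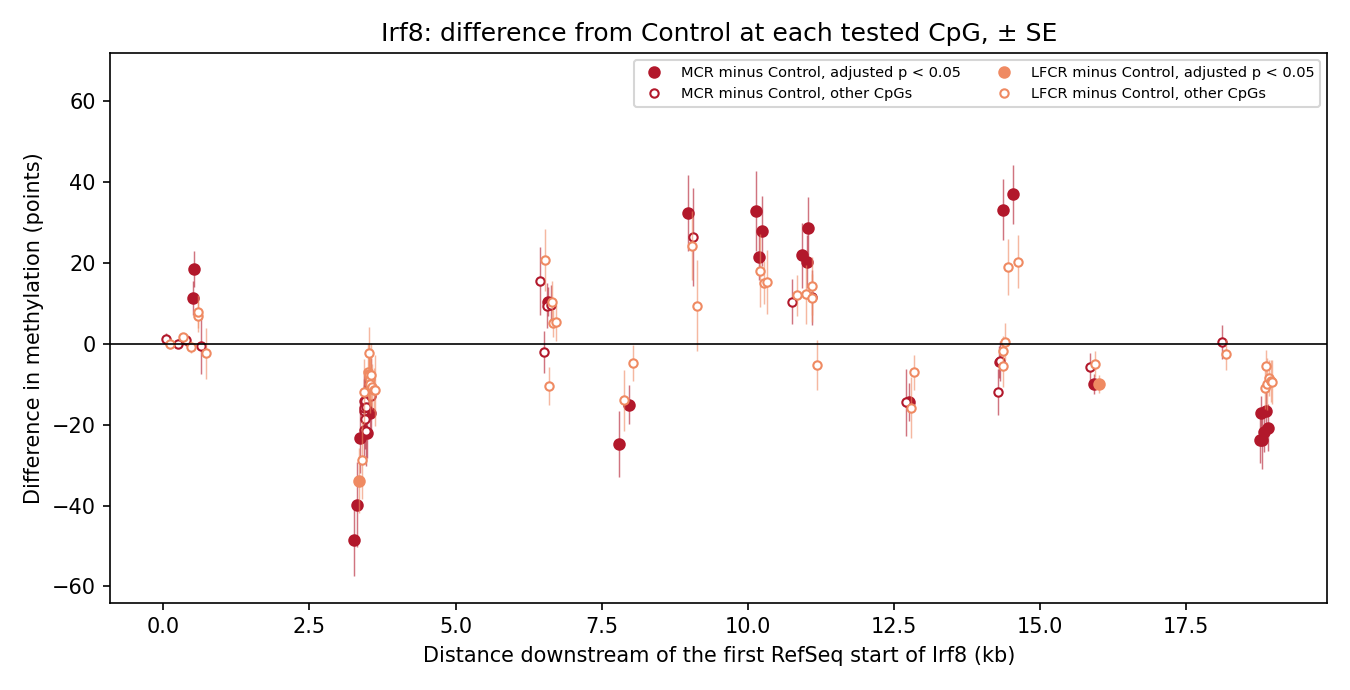
Difference from Control in percentage points, with its standard error, at each of the 53 tested Irf8 CpGs for MCR and LFCR mice, against distance from the first RefSeq start in kb; filled points have an adjusted p under 0.05. MCR points lie below 0 between 3307 and 3588 bp and between 18811 and 18938 bp, and above 0 between 9015 and 11146 bp.

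Because Irf8 is a leukocyte gene, the methylation of marker genes of the cell types in a fat pad was set beside it. Over 12 blocks of 6 leukocyte genes measured in every mouse, methylation averaged 56.2% in MCR mice (55.3 to 57.4%), 52.2% in LFCR mice (48.5 to 55.1%), 50.6% in LFD mice, 49.3% in ICR mice, 50.1% in the Obese mouse and 46.7% in Control mice (45.0 to 49.6%). Over all 13591 such blocks of the table MCR was instead below Control, with 48.9% in MCR mice and 58.3% in Control mice. The other marker means also cover only blocks measured in every mouse. The 4 adipocyte blocks, in 2 genes, averaged 34.8% in MCR mice and 41.8% in Control mice. They include Cebpa blocks under 5% in both groups and leave out Cidec, at 64.9% in MCR mice and 85.3% in Control mice. The 13 luminal epithelial blocks, in 4 genes, averaged 31.4% in MCR mice and 39.1% in Control mice. The 11 endothelial blocks, in 3 genes, averaged 46.6% in MCR mice and 61.8% in Control mice. The 14 skeletal muscle blocks, in 5 genes, averaged 51.8% in MCR mice and 58.6% in Control mice. Calls were counted over every tested marker block, also those without a value in some mice. Beside 53.8% lower and 6.4% higher over all blocks, MCR had 3 of 6 adipocyte blocks called lower and none higher. Of 18 luminal epithelial blocks, 6 were lower and 2 higher. MCR had 10 of 14 endothelial blocks lower and 1 higher, and 8 of 16 skeletal muscle blocks lower and 1 higher. The leukocyte blocks were split, with 6 of 17 lower and 5 higher and a median difference of 1.02 points. Of 130 leukocyte CpGs, 29 were lower and 31 higher, beside 32.8% and 4.54% of all CpGs. Their median difference was -0.13 points. The part of these cell types in the differences above was not tested. Marker methylation does not measure how many cells of a type a sample held.

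The genes that the Socs and Irf proteins work with were described from 2 lists. Of 40 JAK-STAT and cytokine receptor genes, 16 had blocks, 46 in all: 31 were called lower and 5 higher in MCR than in Control (limma, background 53.8% and 6.4%), with a median difference of -11.1 points against -8.05 points over all blocks. In LFCR 18 were lower and 5 higher (background 32.2% and 3.51%). Jak3, the kinase of common gamma chain cytokine receptors, had 8 blocks called lower. Among them was a block with a large difference at chr8:71679786, with 23.7% in MCR mice, 40.9% in LFCR mice and 69.7% in Control mice. Stat5b, a target of SOCS2 control, was lower in 3 blocks, with 39.5% in MCR mice and 82.0% in Control mice at the block of largest difference. Stat6, the transducer of IL-4, was lower in both of its called blocks. Ifngr2, a chain of the interferon-gamma receptor, averaged 50.4% in MCR mice and 78.5% in Control mice at its called block. Its other block averaged 37.8% in MCR mice and 43.7% in Control mice, with no call (limma adjusted p = 0.327). The higher blocks lay in Stat3, the main target of SOCS3 control (69.9% in MCR mice and 44.5% in Control mice), Il6ra, the IL-6 receptor (40.4% in MCR mice and 18.9% in Control mice), Ptpn1 and Ptpn6. Ptpn6, the phosphatase SHP-1 of blood cells, had 2 of them, one at 62.1% in MCR mice and 22.0% in Control mice. Of 42 interferon induction and response genes, 10 had blocks, 16 in all: 7 were lower and 2 higher in MCR, with a median of -6.38 points, and 4 were lower and 1 higher in LFCR, beside the same backgrounds. The higher blocks were those of Tap1, the peptide transporter of antigen presentation (67.8% in MCR mice and 43.6% in Control mice), and Oas2, an interferon-induced RNA sensor (46.8% in MCR mice and 31.9% in Control mice). The lower ones lay in Irf2bp1, a partner of IRF2, in Ikbke, a kinase that activates IRF7, and in Nlrc5 and Ticam1.

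When grouped by their mean level in Control mice, the member CpGs that were called were those with some methylation in Control. Control mice are not an earlier state of the weight-loss mice. Their values enter both the grouping and the difference. Of 16 tested CpGs between 5 and 30% in Control, 12 were lower and 2 higher in MCR, where 19.6% of such CpGs in the table were lower and 13.7% higher; CpGs of the Socs3 block make up most of the lower ones. Of 30 between 30 and 70%, 10 were lower and 9 higher (46.4% and 7.80% in the table), the higher ones all in Irf8. Of 41 above 70%, 18 were lower and 1 higher (39.7% and 0.749% in the table). CpGs of one block are neighbours in the same mice and are not independent.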

How the data were processed

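RRBS libraries of 25 fat pads were aligned to mm10 with Bismark, per the submitters' processing notes, which name no versions. The authors deposited methylation per CpG and library as a fraction (0 to 1, printed here in percent), with gene and feature names and an average coverage signal in reads over 21 libraries. No depth per library is given, so no counting interval was computed; values were present at 48.3 to 99.5% of the CpGs in the 21 libraries used.

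The members, gene lists and tests were chosen with earlier results of these data known. CpGs needed an average coverage of 10 reads and values in 3 mice of each group that had so many. To allow for missing CpGs, a mouse's block level was the average of all CpG means, shifted by that mouse's average deviation at the CpGs it had, given at least 0.5 of them. Levels were fitted with limma (1 term per group over 21 libraries, moderated variance, two-sided, Benjamini-Hochberg adjustment over all blocks or all CpGs). Every member block and CpG was counted; called blocks, each member's largest block and its CpG of smallest p in MCR against Control are given with values, and the 5 genes most like Socs3 were ranked by Pearson r. Other settings tried were minimum coverages of 5 and 20 reads, an arcsine square root scale, all 25 libraries, a minimum difference of 10 points, a gap of 1000 bp, blocks by distance alone, at least 6 CpGs per block and leaving out each mouse. The fit was tested on simulated data. Fits used limma 3.58.1 and data.table (1.17.8) in R 4.3.3; figures used matplotlib 3.10.9 and pandas 2.3.3 in Python 3.11.15.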

Additional observations from a re-analysis of the deposited data

Results flagged for a closer look

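Over the 16 Socs and Irf blocks, 48 groups of 4 or 5 mice were examined. In 8 of them a mouse was set apart from the rest of its group by Dixon's criterion. Chance alone meets it in about 1 in 20 groups of independent, normally distributed values. The groups here reuse the same mice, and some blocks lie near 0, so the count cannot be set against that rate. Control mouse 1 stood at 82.9% in the Irf8 block 3.31 kb from the start, with the other Control mice at 63.7 to 69.2%. Control mouse 2 stood at 90.0% in the Irf8 3'UTR block, with the others at 81.6 to 83.9%. Control mouse 13 stood at 19.4% in the Irf8 block nearest the start, with the others at 15.6 to 16.6%, and at 1.52% in the unmethylated Socs3 body block, with the others at 0.224 to 0.594%. Control mouse 10 was low in the Irf7 block 2.2 kb from the start, at 86.8%, with the others at 90.9 to 91.9%. ICR mouse 112 stood at 72.9% in the Irf8 1st exon block 3.47 kb from the start, with the others at 60.9 to 63.9%. LFCR mouse 72 stood at 87.7% in the distal Irf5 block, with the others at 76.6 to 78.0%, and LFCR mouse 67 at 0.306% in the Irf7 block at the start, where the other LFCR mice were at 0.

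The 4 libraries left out of every comparison showed methylation where the 21 used ones had nearly none. At the 42 tested Socs and Irf CpGs under 5% in Control, Obese mouse 27 averaged 51.3%, Obese mouse 28 averaged 47.0%, Obese mouse 40 averaged 49.2% and LFD mouse 46 averaged 48.2%, against 0.463 to 1.79% in the 21 libraries.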

How the results depend on the processing

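With all 25 libraries in the fit, fewer member blocks (8) and CpGs (78) had values in enough mice, and the calls fell to 3 blocks and 30 CpGs in MCR against Control and to 1 block and 2 CpGs in LFCR against Control. With at least 6 CpGs per block 4 member blocks were left, of which 4 were called in MCR and 2 in LFCR. Leaving out each mouse in turn gave 8 to 10 called blocks and 40 to 53 CpGs in MCR. In LFCR it gave 0 to 6 blocks and 0 to 30 CpGs: none of either without mouse 63 or mouse 67, 2 blocks and 3 CpGs without Control mouse 2, and 30 CpGs, 22 lower and 8 higher, without mouse 72. In LFD against Control it gave 0 to 2 blocks, 2 of them without mouse 47. The cause was not tested. Counts stayed within 1.5 times of the main one at a coverage minimum of 5 or 20 reads, on the arcsine square root scale, with a minimum difference of 10 points, with a gap of 1000 bp and with blocks by distance alone. ICR against Control and MCR against LFCR had no member call under any alternative. No named block changed sign. No paired analysis was possible because mouse numbers are unique and the groups share none. Depth per library is unknown, so the counting error of a level near 0 cannot be given.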
